A study of Homo sapiens with 6 samples.

Results

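Matrix proteases, their inhibitors and the plasminogen activators were examined with and without silencing of MUC1 in an established line of triple-negative breast cancer with mutant BRCA1, MDA-MB-436. The members were set by gene symbol: the metalloproteinases MMP1, MMP2, MMP9 and MMP14, the tissue inhibitors of metalloproteinases TIMP1, TIMP2 and TIMP3, and PLAU, PLAUR and PLAT of the plasminogen activation system. All 10 symbols were found among 37887 rows of the count table, and 9 passed the filter on low counts (every member but MMP9). All cells carried a doxycycline-inducible shRNA to MUC1, delivered by a lentiviral vector with puromycin selection. The 3 control cultures received 0.1% DMSO and the 3 shMUC1 cultures received doxycycline (DOX) at 500 ng/ml. Titles name the controls after a control shRNA, while the treatment fields and the series text give one inducible MUC1 shRNA line with vehicle or DOX, and that reading was used. A direct effect of DOX cannot be told apart from that of silencing, since no control-shRNA cells with DOX were analysed here. A single shRNA was used, and the duration of DOX for this line was not given in the sources used here.

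Matrix metalloproteinases are zinc-dependent endopeptidases made as inactive precursors, and together they cleave most proteins of the extracellular matrix. TIMPs bind their active sites and block them. In parallel, urokinase (encoded by PLAU) bound to its receptor (PLAUR) and tissue plasminogen activator (PLAT) convert plasminogen to plasmin, which degrades fibrin and other matrix proteins and can activate several MMP precursors. In breast cancer these genes are best known for their part in invasion, and much of the protease in tumours is made by the stroma rather than by the tumour cells.

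Library totals ran from 18678307 to 27825546 counts, so a floor of 3 counts equals between 0.109 and 0.161 CPM (counts scaled to a common library size). MUC1 itself was at 3.88 ± 0.401 CPM in control and 2.14 ± 0.412 CPM in shMUC1 libraries (SD, n = 3 each), with every shMUC1 library below every control. Its log2 fold change was -0.84 (SE 0.214), and the quasi-likelihood test of edgeR gave a Benjamini-Hochberg adjusted p of 0.00119. The line was checked against its markers. VIM, the mesenchymal filament vimentin, was at 718 CPM in control and 417 CPM in shMUC1 libraries. Of 3 receptors listed as low in triple-negative cells, ESR1 and PGR averaged 0.196 and 0.0806 CPM there. The third, ERBB2, was not near 0 as RNA, at 44.7 ± 2.41 CPM in control (SD, n = 3). CD3E, DCN and LUM had 0 counts in all 6 libraries. The summed level of 3 epithelial keratins went from 536–571 CPM in control to 1071–1112 CPM in shMUC1 libraries, and that of 5 mesenchymal-type genes from 4345–4480 to 3882–4043 CPM. Of these, 2 of 2 tested keratins were higher and 4 of 5 mesenchymal-type genes lower, where 25.2% of all tested genes were higher and 23.6% lower. Of 11 leukocyte, endothelial and fibroblast markers, 3 were at 0 throughout, and their summed levels in control and shMUC1 were 3.29–3.60 and 5.97–9.24 CPM for 4 leukocyte, 1.74–2.10 and 0.544–0.699 CPM for 3 endothelial and 2.33–4.45 and 2.15–2.53 CPM for 4 fibroblast genes. Most of the leukocyte sum was CD14, at 2.99 CPM in control and 6.28 in shMUC1 libraries. CD14 and PTPRC were called higher, and PECAM1 and COL1A1 lower. PTPRC and PECAM1 were kept by the low-count filter through the group where they were high, so their calls are no support for a difference. The part of these shifts in the results was not tested, and with bulk RNA, fewer cells that express a gene and less RNA per cell cannot be told apart.

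Of the 9 tested members, 6 were lower in shMUC1 cells, 2 were higher and 1 did not pass the test (adjusted p under 0.05). Over all 15355 tested genes, 48.7% were called in either direction, 23.6% lower and 25.2% higher. With a fold change over 2 also required, 1 member (PLAU) was called, against 5.95% of all tested genes. In CPM, the groups did not overlap for 7 tested members, and for 54.8% of all tested genes. The median log2 fold change was -0.40 over the tested members and 0.000583 over all tested genes. All 3 genes of plasminogen activation were lower. The 2 members called higher were MMP1 and TIMP3, and neither call was stable: 0 members were higher with DESeq2, without control replicate 2 or without shMUC1 replicate 2, and 1 was higher without control replicate 3, shMUC1 replicate 1 or shMUC1 replicate 3.

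**Figure D1:**
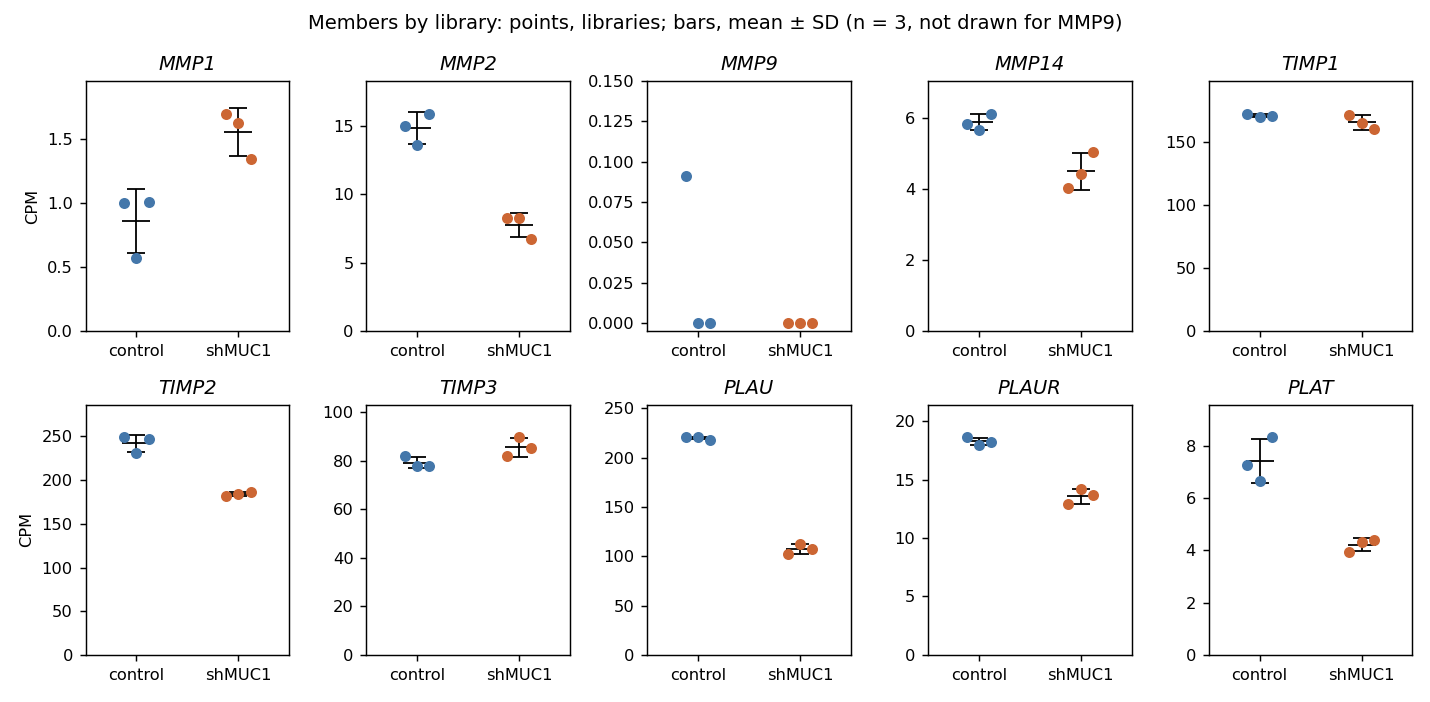
Level of each member in CPM (vertical axis) in 3 control (blue) and 3 shMUC1 (orange) libraries, one panel a gene, with the mean and SD except for MMP9. PLAU, PLAUR, PLAT, MMP2, MMP14 and TIMP2 had all 3 shMUC1 libraries below control, MMP1 had all 3 above, TIMP1 and TIMP3 overlapped, and MMP9 had counts in 1 control library.

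The secreted serine protease urokinase showed the largest change in the set. PLAU (chr10:73909177-73917497, plus strand, GENCODE 29 on GRCh38) was at 220.5, 220.5 and 218.3 CPM in control and 102.3, 112.6 and 107.0 CPM in shMUC1 libraries. The groups stood far apart, with no shMUC1 library near the lowest control. PLAU fell to 48.8% of control, a log2 fold change of -1.03 (SE 0.039, 95% interval -1.11 to -0.96; edgeR adjusted p 1.38e-22). Counts of 1990 to 5639 per library lay behind these values. Of its 2950 exon bases, 916 are shared with C10orf55 on the opposite strand, which had 22, 31 and 42 counts in control and 10, 12 and 5 in shMUC1 libraries. Whether reads were counted by strand was not given in the sources used here.

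PLAUR (chr19:43646095-43670547, minus strand), the membrane-anchored receptor that holds urokinase at the cell surface, was also lower. It was at 18.61, 17.98 and 18.20 CPM in control and 12.88, 14.17 and 13.65 CPM in shMUC1 libraries. No shMUC1 library reached the lowest control. PLAUR fell to 74.3% of control, a log2 fold change of -0.43 (SE 0.0932, 95% interval -0.62 to -0.24; edgeR adjusted p 0.000204). Ligand and receptor did not fall to the same extent. The ratio of PLAU to PLAUR, each in CPM per kilobase (kb) of exon, was 17.9, 18.5 and 18.1 in control and 11.99, 12 and 11.84 in shMUC1 libraries.

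PLAU and PLAUR were lower together, and the bases just upstream of their RefSeq starts are shown so that the reader can see what these windows hold. Sequences are from RefSeq on GRCh38.p14, on the strand of the gene, and end at the base before the annotated start. PLAU has another RefSeq start further upstream, whose window held none of the words searched. Capitals mark matches, on either strand, to words bound by factors known at these genes: AP-1 (TGANTCA), ETS (GGAAGT), SP1 (GGGCGG), NF-kB and the TATA box (TATAAA).
PLAU, chr10:73910882-73911131, plus strand: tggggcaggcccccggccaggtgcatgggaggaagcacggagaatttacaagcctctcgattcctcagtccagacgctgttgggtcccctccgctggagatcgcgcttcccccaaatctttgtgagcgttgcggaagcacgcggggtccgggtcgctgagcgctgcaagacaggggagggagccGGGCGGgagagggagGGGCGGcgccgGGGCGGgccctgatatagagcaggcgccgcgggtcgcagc
PLAUR, chr19:43670170-43670419, minus strand: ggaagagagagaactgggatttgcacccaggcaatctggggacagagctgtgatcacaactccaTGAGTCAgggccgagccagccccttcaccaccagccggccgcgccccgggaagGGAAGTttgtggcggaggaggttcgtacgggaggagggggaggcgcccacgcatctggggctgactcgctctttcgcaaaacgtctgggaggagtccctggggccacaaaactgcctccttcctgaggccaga

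The PLAU window held 3 SP1 words, which start 66, 51 and 40 bases before the annotated start, and no other word searched. The PLAUR window held 1 AP-1 word, 186 bases before its start, and 1 ETS word, 133 bases before it. Of 35116 RefSeq windows of the same length, 42.6% held the SP1 word, 6.57% the AP-1 word, 19.5% the ETS word, 0.527% the NF-kB word and 10.7% the TATA word. Promoter windows were present for 5 members (PLAU, PLAUR, MMP14, TIMP1 and TIMP3), and 4 of these held the SP1 word and 1 the AP-1 word. A match here is a match of letters, and enhancers further upstream were not examined.

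PLAT (chr8:42175233-42207724, minus strand), the tissue-type activator that acts mainly on plasminogen bound to fibrin, was expressed at a far lower level per length than PLAU. It was at 7.25, 6.65 and 8.32 CPM in control and 3.95, 4.31 and 4.41 CPM in shMUC1 libraries, from 82 to 215 counts each. The highest shMUC1 library stayed below the lowest control. PLAT fell to 56.8% of control, a log2 fold change of -0.82 (SE 0.15, 95% interval -1.12 to -0.51; edgeR adjusted p 2.03e-05). Summed per kb of exon, PLAU, PLAUR and PLAT went from 79.7 ± 0.336 to 40.1 ± 1.92 CPM (SD, n = 3 each), almost all of it PLAU.

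Among the metalloproteinases, the gelatinase MMP2 (chr16:55389700-55506691, plus strand), which cleaves type IV collagen and denatured collagens, changed most clearly. It was at 15.01, 13.63 and 15.91 CPM in control and 8.25, 8.27 and 6.72 CPM in shMUC1 libraries. All shMUC1 libraries lay well below every control, and the lowest was replicate 3. MMP2 fell to 52.6% of control, a log2 fold change of -0.93 (SE 0.114, 95% interval -1.16 to -0.70; edgeR adjusted p 1.26e-08). Of its 4933 exon bases, 174 are shared with AC007336.3 on the same strand, which was not analysed here.

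MMP14 (chr14:22836557-22849027, plus strand), the membrane-type enzyme that activates the MMP2 precursor at the cell surface in a complex with TIMP2, showed a smaller difference. It was at 5.84, 5.67 and 6.12 CPM in control and 4.02, 4.43 and 5.05 CPM in shMUC1 libraries. Groups did not overlap, but shMUC1 replicate 3 came close to the controls. MMP14 fell to 76.0% of control, a log2 fold change of -0.40 (SE 0.157, 95% interval -0.71 to -0.08; edgeR adjusted p 0.0355). This call was close to the threshold and was lost in 6 of 14 alternatives, among them DESeq2 (adjusted p 0.062) and the fits without control replicate 1 or 3 or without shMUC1 replicate 1 or 2, where the log2 fold change ranged from -0.40 to -0.31.

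The collagenase MMP1 (chr11:102789920-102798160, minus strand), which cuts native fibrillar collagens, went the other way at a low level. Its counts were 22, 14 and 26 in control and 47, 42 and 25 in shMUC1 libraries, which equals 1.003, 0.5748 and 1.007 CPM against 1.70, 1.63 and 1.34 CPM. Every shMUC1 library was above every control in CPM, though the raw counts overlapped. MMP1 rose to 182% of control, a log2 fold change of 0.86 (SE 0.349, 95% interval 0.15 to 1.57; edgeR adjusted p 0.0392). The call was lost with DESeq2 (adjusted p 0.0545) and without control replicate 2 (0.64, adjusted p 0.166), shMUC1 replicate 1 (0.80, adjusted p 0.11) or shMUC1 replicate 2 (0.83, adjusted p 0.0861). WTAPP1, which shares 150 of its 1970 exon bases on the opposite strand, had at most 4 counts in a library.

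MMP1 lies in a cluster of 9 metalloproteinase genes within 435 kb of chromosome 11, and its 2 neighbours on one side, MMP3 (a stromelysin, which cleaves many matrix proteins) and MMP12 (the macrophage elastase), also had few counts. MMP3 had 16, 11 and 10 counts in control and 58, 50 and 34 in shMUC1 libraries, with a fitted log2 fold change of 1.91 (SE 0.364). MMP3 passed the low-count filter through its shMUC1 level, so its call is no support for a difference. MMP12 had 0 counts in all 3 control and 14, 16 and 6 counts in shMUC1 libraries. It did not pass the low-count filter and was singled out for these values, so no test is given. MMP10, next to MMP1 on the other side, had 0, 5 and 0 counts in control and 2, 7 and 2 in shMUC1 libraries, which overlap. MMP7 (11, 8 and 6 against 4, 16 and 0 counts) and MMP20 (4, 6 and 2 against 18, 5 and 1) also overlapped. MMP27 was at 0 in all 6 libraries, and MMP8 and MMP13 each had 2 counts in 1 control library.

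MMP9 (chr20:46008908-46016561, plus strand), the other gelatinase, had 2, 0 and 0 counts in control and 0, 0 and 0 counts in shMUC1 libraries. These values are under the floor of 3 counts, so at this depth no difference could be detected. SLC12A5-AS1, which shares 430 of its 2336 exon bases on the opposite strand, had from 0 to 4 counts.

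The 3 TIMPs diverged. TIMP2 (chr17:78852977-78925387, minus strand), which inhibits MMPs broadly and also takes part in MMP2 activation, was at 248.9, 230.7 and 246.8 CPM in control and 182, 184 and 186 CPM in shMUC1 libraries. The shMUC1 libraries sat close together, all below the lowest control. TIMP2 fell to 76.0% of control, a log2 fold change of -0.40 (SE 0.0361, 95% interval -0.47 to -0.32; edgeR adjusted p 1.06e-11). Of its 5633 exon bases, 367 are shared with the antisense gene AC022966.1 on the opposite strand, which was not analysed here, and 198 with CEP295NL on the same strand, which had from 2 to 12 counts a library.

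TIMP1 (chrX:47582313-47586789, plus strand), the inhibitor with growth-regulating activity as well, was at 173, 170 and 171 CPM in control and 172, 165 and 160 CPM in shMUC1 libraries. The groups overlapped, since shMUC1 replicate 1 lay among the controls. The log2 fold change was -0.04 (SE 0.0372, 95% interval -0.12 to 0.03) with an edgeR adjusted p of 0.339. The interval leaves out a change of the size of that in TIMP2 in either direction. The ratio of TIMP1 to TIMP2 per kb was 2.54, 2.69 and 2.53 in control and 3.46, 3.27 and 3.15 in shMUC1 libraries.

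TIMP3 (chr22:32801701-32863043, plus strand), which binds to the matrix and also inhibits ADAM proteases, was at 82.1, 77.9 and 78.0 CPM in control and 81.8, 89.7 and 85.5 CPM in shMUC1 libraries. Control replicate 1 lay above shMUC1 replicate 1, so the groups overlapped. TIMP3 was called higher at the margin, with a log2 fold change of 0.11 (SE 0.047, 95% interval 0.02 to 0.21) and an edgeR adjusted p of 0.0477. The call was lost in 11 of 14 alternatives, including DESeq2 (adjusted p 0.0809), limma-voom (0.0527) and the replicate block (0.0503), and it was lost without control replicate 2 or 3 or shMUC1 replicate 2 or 3, where adjusted p reached 0.236.

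**Figure D2:**
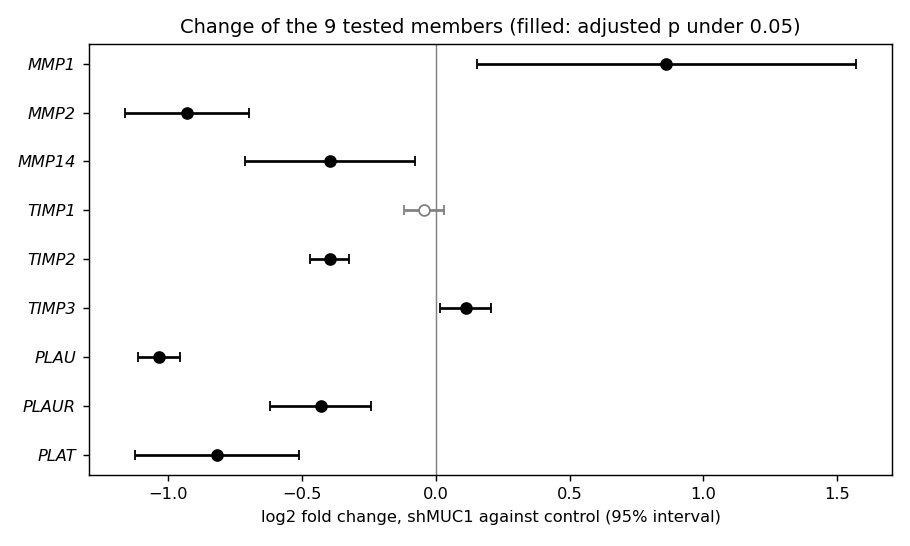
Log2 fold change of the 9 tested members, shMUC1 against control (horizontal axis), with 95% intervals from the edgeR fit. Filled points passed an adjusted p under 0.05: PLAU, MMP2 and PLAT lay furthest to the left, MMP1 had the widest interval, and the interval of TIMP1 held 0.

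Compared per kb of exon, so that genes of different length can be set side by side, the inhibitors and urokinase stood well above the metalloproteinases. In control cells the order was TIMP1 (111 ± 0.93 CPM per kb), PLAU (74.5 ± 0.421), TIMP2 (43.0 ± 1.77), TIMP3 (17.2 ± 0.518), PLAUR (4.10 ± 0.0715), MMP2 (3.01 ± 0.233), MMP14 (1.32 ± 0.0511), PLAT (1.12 ± 0.128) and MMP1 (0.437 ± 0.126), all SD with n = 3. Among 15355 tested genes, TIMP1 stood at percentile 98.3 and PLAU at 96.9, while MMP2 stood at 44.1, MMP14 at 28.7 and MMP1 at 13.9. MMP14 and PLAT were neighbours whose control libraries all but touched, with a lowest value of 1.27 for MMP14 and a highest of 1.26 for PLAT. In shMUC1 cells PLAU (36.4 ± 1.75) came close to TIMP2 (32.7 ± 0.416), and MMP1 (0.791 ± 0.0961) moved ahead of PLAT (0.638 ± 0.0369), with no overlap between their libraries in either pair. Lengths merge all annotated exons (1970 bases for MMP1, 6618 for PLAT), and orders and ratios per kb depend on that choice. In CPM, PLAT (4.22) stayed above MMP1 (1.56) in shMUC1 cells.

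The summed level of the 3 TIMPs was 171 ± 3.01 CPM per kb in control and 159 ± 3.01 in shMUC1 cells, and that of the 4 metalloproteinases 4.78 ± 0.405 and 3.37 ± 0.170 (SD, n = 3 each). Transcripts of the inhibitors outnumbered those of these enzymes in all 6 libraries. The ratio of TIMP2 to MMP2 per kb was 14.5, 14.8 and 13.6 in control and 19.3, 19.5 and 24.3 in shMUC1 libraries, without overlap. The ratio of TIMP2 to MMP14 was 33.8, 32.3 and 32.0 in control and 35.8, 33.0 and 29.2 in shMUC1 libraries, which overlap. These ratios are descriptions, chosen for the known pairing of the proteins, and RNA levels say nothing of secreted or active protein.

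**Figure D3:**
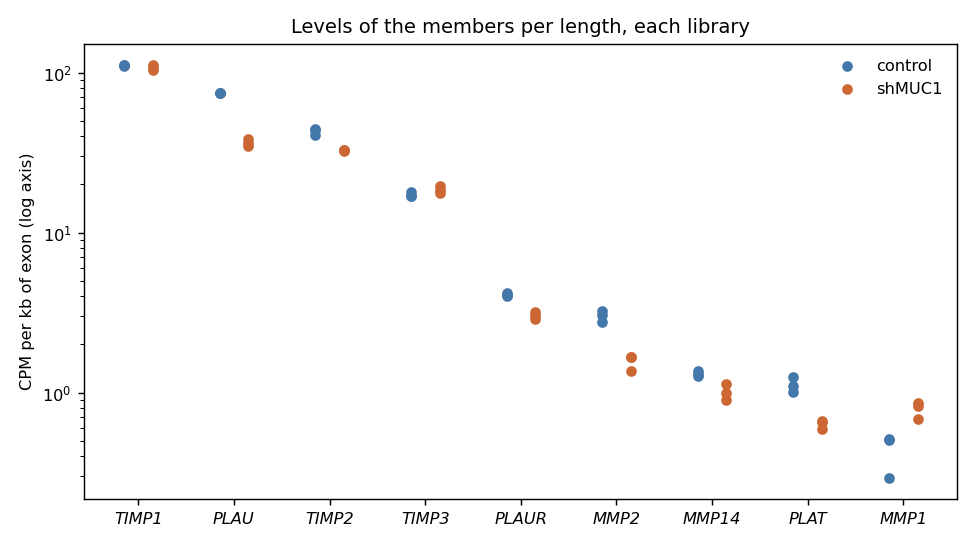
Level of each member per kb of exon (CPM per kb, log axis) in control (blue) and shMUC1 (orange) libraries, ordered by control level, without MMP9. TIMP1, PLAU, TIMP2 and TIMP3 lay above 10 CPM per kb and the other members below 5. MMP1 was the lowest in control but passed PLAT in shMUC1 cells per kb of merged exons, though not in CPM.

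Of 144 further genes of the matrix protease systems, listed by role, 108 were tested, with 26 higher and 42 lower (63.0%, against 48.7% of all tested genes) and 8 at 0 in all libraries. In the list of plasminogen system inhibitors and related genes, 1 of 6 tested genes was higher and 4 were lower (25.2% and 23.6% of all tested genes). The median log2 fold change was -0.34. SERPINI1 (neuroserpin, an inhibitor of tissue activator) and SERPINB8, another serpin of that list, fell by 0.89 and 0.44 on the log2 scale. TFPI2, an inhibitor of plasmin and other serine proteases, was higher by 0.54.

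The substrate and receptors of this system split. Plasminogen itself (PLG) had 1 count in all 6 libraries together, so its RNA was not detectable at this depth. Of 9 tested genes, 3 were higher and 4 lower (77.8% called, against 48.7% of all tested genes), with a median of -0.27. The endocytic receptors that clear urokinase complexes or bind PLAUR were lower: MRC2 at -1.18 (SE 0.0815, adjusted p 6.33e-15), LRP1 at -0.89 (SE 0.0656, adjusted p 3.4e-14) and IGF2R at -0.60 (SE 0.032, adjusted p 5.24e-18), all log2 fold changes from edgeR. PLGRKT, a plasminogen receptor of the cell surface, was higher by 0.60 (SE 0.0925). Other plasminogen-binding proteins went either way: S100A10 and ANXA2, which form a complex, were higher by 0.58 and 0.18, and ENO1, an enolase that also binds plasminogen at the cell surface, fell by 0.27 on the log2 scale, all 3 named after their values were seen.

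The list of cell-surface serine proteases and their inhibitors held 4 higher and 0 lower of 5 tested genes (median 0.38). Over all tested genes, 25.2% were higher and 23.6% lower. PRSS23, whose value is the list median, is a secreted protease. SPINT1, an inhibitor of matriptase and hepsin, had 4, 0 and 8 counts in control and 59, 66 and 20 in shMUC1 libraries. It passed the low-count filter only through its shMUC1 level, so its call is no support for a difference, and its fitted log2 fold change of 3.52 went to 2.94 without control replicate 2 and 4.40 without control replicate 3. SPINT2 and PRSS23 were higher by 1.55 and 0.38 on the log2 scale, as was DPP4 by 0.16, a call lost without shMUC1 replicate 2 (0.10, adjusted p 0.107). ST14, which encodes matriptase, an activator of the urokinase precursor, had no count in any library, where the floor in the shallowest is 0.161 CPM.

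Of 4 tested genes among the other secreted MMPs, 1 was called higher and 3 were not called (median 0.15). The 1 was MMP3, with the limit given above, and 48.7% of all tested genes were called. The other membrane-bound MMPs held 1 higher and 3 lower of 5 tested (80% called, median -0.27). The 3 lower include MMP25, with 16, 18 and 26 counts in control and 12, 11 and 4 in shMUC1 libraries. MMP25 was kept by the low-count filter through its control level. MMP16, at 100 ± 1.75 CPM in control and 87.5 ± 5.09 in shMUC1 cells (SD, n = 3 each), fell by 0.19 on the log2 scale. MMP24 was higher by 0.68, a call lost with DESeq2 (adjusted p 0.0528) and without control replicate 1 or 3 or shMUC1 replicate 1 or 3, with 0.48 and an adjusted p of 0.174 without control replicate 3. Inhibitors, activators and inducers of MMPs held 4 higher and 2 lower of 10 tested (60% called, median 0.06). The 4 higher include LCN2, with 6, 2 and 2 counts in control and 28, 28 and 16 in shMUC1 libraries. LCN2 was kept by the low-count filter through its shMUC1 level. RECK, a membrane-anchored MMP inhibitor, fell by 0.29, and FURIN, the convertase that activates the MMP14 precursor, was higher by 0.25. THBS1 was higher by 0.24, and PCSK5 by 0.57, a call lost without control replicate 2 (0.40, adjusted p 0.107).

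ADAMTS proteases, which process procollagens and proteoglycans, had 8 lower and 1 higher of 14 tested, with a median of -0.77, where 23.6% of all tested genes were lower and 25.2% higher. Of the 8, 6 fell more than 2-fold, as did 575 of all 15355 tested genes. ADAMTS2, the procollagen N-proteinase, went from 28.3 ± 1.38 to 10.6 ± 0.987 CPM (SD, n = 3 each), and its log2 fold change was -1.40 (SE 0.0912; edgeR adjusted p 1.16e-15). ADAMTS3, ADAMTS5 and ADAMTS1 fell by 1.79, 1.23 and 1.20 on the log2 scale. The list of ADAM genes held 0 higher and 4 lower of 10 tested (40% called, against 48.7% of all tested genes, median -0.01). It was drawn by family and not by protease activity, and ADAM22 and ADAM23 are not active proteases. ADAM23 was at -1.53, ADAM9 at -0.27, ADAM12 at -0.26 and ADAM15 at -0.12. The ADAM15 call was lost in 6 of 14 alternatives (-0.07 and an edgeR adjusted p of 0.28 without shMUC1 replicate 1). ADAM10 and ADAM17 had log2 fold changes of 0.04 and -0.06, with adjusted p of 0.394 and 0.269, and were named after their values were seen.

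Cathepsins and cystatins held 2 higher and 4 lower of 14 tested (42.9% called, against 48.7% of all tested genes, median -0.13). The 4 lower include CTSH, with 18, 14 and 19 counts in control and 8, 4 and 8 in shMUC1 libraries. CTSH was kept by the low-count filter through its control level. CTSB, which can activate the urokinase precursor, fell by 0.52 on the log2 scale (SE 0.0308), CTSK fell by 0.79 and CTSZ fell by 0.28, while CTSC was higher by 0.70. Among non-collagen matrix proteins that these enzymes cleave, 6 were higher and 7 lower of 19 tested (68.4% called, median 0.06). Laminin chains went either way: LAMB3 and LAMA3 were higher by 1.45 and 0.66, LAMA1 and LAMB1 fell by 0.64 and 0.39 on the log2 scale, and LAMA4, LAMA5, LAMB2 and LAMC1 were not called, all but the first pair named after their values were seen. SPARC, with at most 48 counts a library, had a fitted log2 fold change of -1.97. It was kept by the filter through its control level, so its call is no support for a difference.

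AP-1 and ETS factors, which are known to drive several of these genes, held 3 higher and 6 lower of 12 tested (median -0.10). Of the 12, 75% were called, against 48.7% of all tested genes. ETS1 was at 123, 131 and 124 CPM in control and 77.2, 75.7 and 73.1 CPM in shMUC1 libraries, a log2 fold change of -0.74 (SE 0.0432; edgeR adjusted p 5.64e-17). FOSL1 was at 385, 406 and 394 CPM in control and 238, 252 and 241 CPM in shMUC1 libraries, a log2 fold change of -0.70 (SE 0.0335; edgeR adjusted p 1.84e-19). Both were lower in all 3 shMUC1 libraries, as were PLAU and PLAUR, and their part in those changes was not tested. JUNB and ETV1 were higher by 0.63 and 0.28 on the log2 scale.

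**Figure D4:**
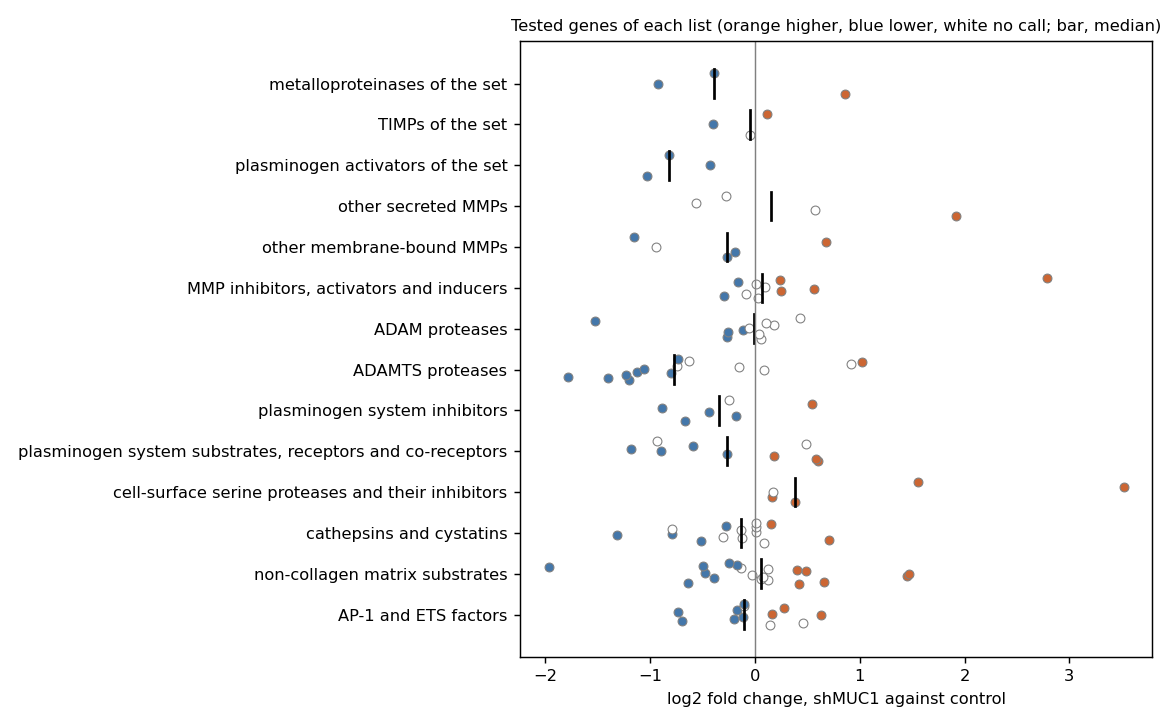
Log2 fold change, shMUC1 against control (horizontal axis), of each tested gene in the members' 3 groups and the 11 wider lists; orange, higher; blue, lower; white, not called; black bars, medians. Medians lie furthest to the left for the plasminogen activators and the ADAMTS proteases, and SPINT1 (3.52), which had few counts in control, lies furthest to the right.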

How the data were processed

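RNA was measured in 6 libraries (3 control, 3 shMUC1), prepared with a TruSeq Stranded mRNA kit. The deposited file holds raw counts for each gene symbol, with 1 column per library and replicates not pooled. The submitters' processing notes list CASAVA 1.8.2, STAR 2.7.9a, featureCounts, DESeq2 1.24.0 and GRCh38.p7, while the annotation release, strand setting and counting of read pairs were not given in the sources used here. Among values of 1 to 20 counts, from 68.8% to 70.5% per library were even, so halved counts were tried. Library totals ran from 18678307 to 27825546 counts, and pairs within a group differed by a chi-square per degree of freedom of 2.79 to 5.55. Where cultures were not separate, p-values measure technical spread only. Floors cover counting error only.

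Counts were tested with edgeR 4.0.16 in R 4.3.3 (quasi-likelihood test, TMM, filterByExpr, group as the only term, two-sided, Benjamini-Hochberg adjustment over 15355 genes). CPM used TMM-scaled totals. Standard errors were derived from the F statistic, and intervals used the total degrees of freedom of the fit. Lengths are merged exons in GENCODE 29 (GRCh38), which 98.1% of rows matched. Alternatives were DESeq2 size factors, library totals, no filter, a filter at a mean of 50 counts, limma-voom (limma 3.58.1), DESeq2 1.42.0, a replicate block, each library left out, halved counts and a fold change over 2. In a simulation over 15355 genes, 79% of 200 altered genes were found by edgeR, beside 12 false calls. Far more genes (7483) were called in the data, so these rates do not describe the calls given here.

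Members and lists were chosen with earlier results of these data known. Named were all members, MUC1 and, per wider list, up to 4 genes of largest change with adjusted p under 0.05, non-overlapping groups and a mean count of 20 or more, of which 2 are not reported here. The lists were secreted and membrane-bound MMPs, MMP regulators, ADAM, ADAMTS, plasminogen system inhibitors, its substrates and receptors, cell-surface serine proteases, cathepsins, matrix substrates, and AP-1 and ETS factors. Same-numbered libraries were treated as unpaired, and their deviations from group means correlated at 0.00493, -0.0324 and -0.0382. Such values cannot show whether cultures of the same number were grown together.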

Additional observations from a re-analysis of the deposited data

How the results depend on the processing

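MUC1, MMP2, TIMP1, TIMP2, PLAU, PLAUR and PLAT kept their direction and side of the threshold in all 14 alternatives, from -1.07 to -0.9969 on the log2 scale for PLAU and from -0.99 to -0.84 for MMP2. No member reversed. With a replicate block, TIMP3 was at 0.11 (adjusted p 0.0503) and members higher went from 2 to 1, and no other member's call changed. Same-numbered libraries were treated as unpaired in the main fit, and 1 of 6 libraries correlated best with its own number.

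TIMP3 was not called with DESeq2 size factors (0.1087), library totals only (0.0895), a mean of at least 50 counts (0.0887), DESeq2 (0.1087), limma-voom (0.1113) or halved counts (0.1052), with a range of 0.0780 to 0.1482 when one library was left out. MMP14 was not called without the low-count filter (-0.3855) or with DESeq2 (-0.3967), with a range of -0.4735 to -0.3140 when one library was left out. MMP1 was not called with DESeq2 (0.8609), did not pass a mean of at least 50 counts, with a range of 0.6411 to 0.9856 when one library was left out. The causes were not tested.

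Members higher numbered 1 with DESeq2 size factors, library totals, limma-voom and halved counts, 0 with DESeq2 and with the filter at a mean of 50 counts, and from 0 to 2 without one library. Members lower numbered from 5 to 6 in these fits. A fold change over 2 left 0 members higher and 1 lower, and 339 and 575 genes in all, by construction. No scaling moved the median of all genes by over 0.1. Depth limits MMP1 and MMP9 most.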
